A study of Mus musculus with 12 samples.

Results

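USP-family deubiquitinases were described in ventricular RNA of 12 mouse libraries. The family was taken as every row of the deposited count table named Usp and a number, with an optional x or l, that had at least 10 counts in at least 6 of the 12 libraries. This rule kept 44 genes of 49 rows so named and of 54949 features in the table. All 44 were among the 15114 genes tested, and 43 had at least 10 counts in every library. The exception was Usp27x, with 8 to 16 counts per HF-named library and 8 to 19 per con-named library. Just outside the rule was Usp50, with 4 to 11 counts per library in each group, and Usp26, Usp51, Usp29 and Usp44 had 0 to 4 counts per library.

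The study set a mouse model of HFpEF, heart failure in which the ejection fraction is preserved, made with a high-fat diet and the nitric oxide synthase inhibitor L-NAME at 0.5 g/L in drinking water, beside mice on normal diet and water. All groups were wild-type male C57BL/6N mice, 8 weeks old at the start and treated for 5 weeks, and ventricles were taken without atria. The labels disagree about which group is which: the 6 samples titled CON, on normal diet, have the library names HF-1 to HF-6, and the 6 titled HFpEF, on the diet with L-NAME, have the names con-1 to con-6. The groups are called HF-named and con-named after the library names (n = 6 each), every fold change is HF-named over con-named, and which group received the diet and L-NAME is not settled here. The design text speaks of 5 samples per group. The labels do not say that each library came from its own mouse, so the p-values measure the spread between these libraries, which may be technical.

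Ubiquitin is a small protein that is attached to other proteins by a chain of E1, E2 and E3 enzymes, and deubiquitinases cut it off again. The USP genes encode the largest family of deubiquitinases, cysteine proteases that share a catalytic fold and differ in the domains around it. Through their substrates they act on protein degradation by the proteasome, on receptor sorting in endosomes, on histone ubiquitination and on DNA repair. In heart and skeletal muscle the ubiquitin system takes part in the turnover of contractile proteins.

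The libraries held 14443186 to 22048689 counts each, a depth at which 3 counts correspond to 0.142 to 0.217 CPM, the unit of counts per TMM-normalized library size used for genes here, a floor that covers counting error alone. Mitochondrial transcripts took 25.2 ± 1.19% of the counts in HF-named and 22.4 ± 1.10% in con-named libraries (mean ± SD of 6; two-sided p = 0.00433 by exact permutation). Cardiomyocyte markers summed to 78048 to 88881 CPM in HF-named and 76506 to 85703 CPM in con-named libraries, and no marker of the cell type lists was at 0 throughout. Cardiomyocyte markers split, 1 of 10 (Ryr2) being higher and 4 (Myl3, Myl2, Tnni3 and Tnnt2) lower in HF-named libraries. Marker counts are to be read beside 8.28% of all genes called higher and 5.05% called lower. For the unadjusted edgeR p under 0.05 the share of all genes was 28.6%, and for a log2 fold change above 0 it was 47.3%. Of the 10 fibroblast markers 4 were lower, and 1 had a log2 fold change above 0. The fibroblast sum ran from 1218 to 1489 CPM in HF-named and from 1486 to 1907 CPM in con-named libraries. Of 10 endothelial markers 3 were lower, with sums of 1124 to 1672 CPM in HF-named and 1410 to 1804 CPM in con-named libraries. None of the 10 had a log2 fold change above 0, and 6 had an unadjusted edgeR p under 0.05. Macrophage markers had 3 of 10 lower, and sums of 214 to 282 CPM in HF-named and 253 to 345 CPM in con-named libraries. Again none of the 10 lay above 0, and 8 had an unadjusted edgeR p under 0.05. No mural marker of 8 tested passed in edgeR (3 at an unadjusted p under 0.05, and 2 with DESeq2), with sums of 1474 to 1674 CPM in HF-named and 1287 to 1463 CPM in con-named libraries. Of 5 erythroid markers Hba-a2 was higher, while all 5 had a log2 fold change above 0 and 4 an unadjusted edgeR p under 0.05. Lymphocyte markers summed to 5.59 to 13.0 CPM in HF-named and 5.41 to 9.79 CPM in con-named libraries, atrial markers to 23.1 to 195 CPM in HF-named and 63.7 to 127 CPM in con-named libraries, and adipocyte markers to at most 0.332 CPM in HF-named and 0.295 CPM in con-named libraries. In whole tissue, fewer cells of a type and less RNA per cell cannot be told apart, and the part of these markers in the USP results was not tested.

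USP transcripts were called higher more often than lower in HF-named ventricles, 8 against 1 with TMM scaling and 3 against 1 with scaling by library totals (beside 3.2% of all genes higher and 17.1% lower). Passing the test as higher in HF-named libraries were 8 of the 44, namely Usp32, Usp24, Usp33, Usp9x, Usp47, Usp45, Usp31 and Usp13. These are 18.2% of the family, beside 8.28% of all genes tested that were called higher. A single member, Usp11, was lower, which is 2.27% beside 5.05% of all genes (edgeR quasi-likelihood test, Benjamini-Hochberg adjusted p under 0.05 over all 15114 genes). In either direction 9 of 44 were called (20.5%, beside 13.3% of all genes). The changes were modest, with log2 fold changes of called members between -0.46 and 0.40. The median log2 fold change of the 44 was 0.09, against -0.01 over all genes tested, and 32 of 44 lay above 0 (72.7%, beside 47.3% of all genes). Summed over the 44 members, the family had 2283, 2450 and 2560 CPM (lowest, median and highest) in HF-named and 2127, 2216 and 2300 CPM in con-named libraries, so the ranges overlapped. Scaling by library totals in place of TMM put the median of the family at -0.02, with 18 of 44 above 0, and that of all genes at -0.13, so that the distance between the 2 medians was 0.11 on the log2 scale in both cases. Without mitochondrial transcripts 8 members were called higher, as with limma-voom, beside 8.4% of all genes higher and 5.25% lower by that tool.

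**Figure D1:**
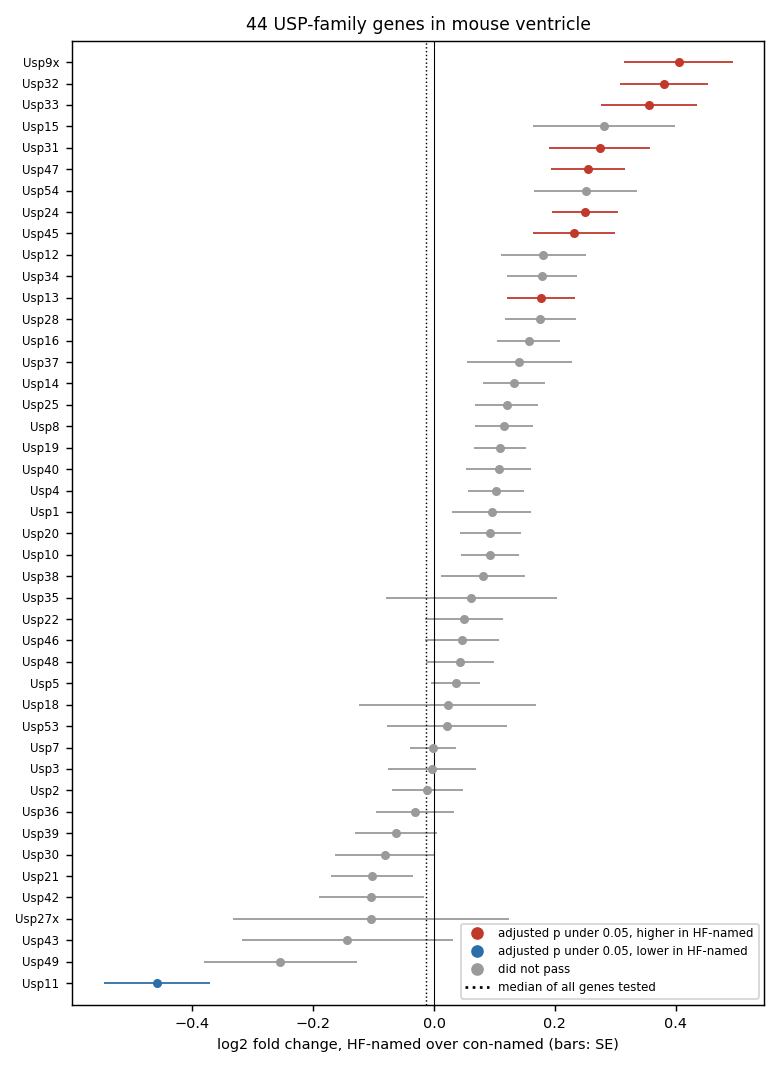
Log2 fold change (x axis, HF-named over con-named) of each of the 44 USP-family genes (y axis), with bars for the standard error; red points are called higher, the blue point is called lower and grey points did not pass, and the dotted line is the median of all genes tested. Most points lie right of the dotted line, with Usp9x at 0.40 at the top and Usp11 at -0.46 at the bottom.

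Promoters are described for members called and not called, and their part in the fold changes was not tested. RefSeq windows of GRCm38.p6 were found for 33 of the 44 genes, among them 7 of the 9 called. In the 250 bases before the start, the GC box (GGGCGG or CCGCCC, bound by Sp1-type factors) was present in 6 of the 6 matched members called higher, in 24 of the 33 members and in 32.7% of all 32841 windows. The ETS core (CCGGAA or TTCCGG) was found in 10 of the 33 and in 12.0% of all windows. The number of CpG pairs was 13 to 35 in the 6 members called higher and 5 in Usp11, with a median of 25 over the 33 members and 6 over all windows. All windows were taken whether or not their gene was tested here, whereas the members passed a count rule. The values over all windows are therefore not matched for expression, and the part of expression in these contrasts was not tested. A set of 3 windows shows the one member called lower beside a pair called higher, written 5′ to 3′ on the gene's strand up to the annotated start, with GC boxes and ETS cores in capitals; they are chrX:20703659-20703905 for Usp11, chr4:106315963-106316212 for Usp24 and chr7:112023256-112023503 for Usp47, all on the plus strand.
Usp11: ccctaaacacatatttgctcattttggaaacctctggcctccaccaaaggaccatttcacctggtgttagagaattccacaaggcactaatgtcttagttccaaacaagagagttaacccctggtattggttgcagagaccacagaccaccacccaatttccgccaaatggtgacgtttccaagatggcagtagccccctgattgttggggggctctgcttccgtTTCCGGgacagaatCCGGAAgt
Usp24: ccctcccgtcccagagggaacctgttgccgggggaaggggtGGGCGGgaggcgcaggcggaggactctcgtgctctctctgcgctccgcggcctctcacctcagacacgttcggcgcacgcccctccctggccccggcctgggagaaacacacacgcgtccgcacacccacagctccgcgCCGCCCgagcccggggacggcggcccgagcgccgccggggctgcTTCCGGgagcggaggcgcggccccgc
Usp47: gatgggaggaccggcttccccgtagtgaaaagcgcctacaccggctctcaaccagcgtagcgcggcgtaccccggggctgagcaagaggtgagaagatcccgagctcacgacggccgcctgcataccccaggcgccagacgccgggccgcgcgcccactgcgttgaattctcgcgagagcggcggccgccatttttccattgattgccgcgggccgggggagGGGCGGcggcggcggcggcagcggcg
The Usp11 window held 2 ETS cores and no GC box, that of Usp24 2 GC boxes and 1 ETS core, and that of Usp47 1 GC box. These 3 were the called members whose RefSeq start lay close to the start in the GENCODE gene annotation. Usp24 and Usp47 had the most CpG pairs of the 6 matched members called higher (33 and 35), and Usp31 and Usp45 the fewest (13 each). Also without a GC box were 8 members that did not pass, namely Usp10, Usp16, Usp25, Usp30, Usp40, Usp48, Usp49 and Usp54, of which Usp54 had fewer CpG pairs than Usp11. A match is a stretch of letters and was not tested for binding.

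Among the USPs of endosomes and membrane traffic, Usp32 and Usp33 rose, and Usp20 and Usp8 did not pass. Usp32 (ENSMUSG00000000804, chr11:84984442-85140161, minus strand, mm10) encodes a membrane-bound enzyme that in human cells acts on the small GTPase Rab7. It had 30.6, 34.4 and 39.6 CPM (lowest, median and highest) in HF-named and 24.0, 26.0 and 29.1 CPM in con-named libraries. Each HF-named value exceeded each con-named value, which held for 3 members and for 3.41% of all genes. The log2 fold change was 0.38 (SE 0.07, edgeR adjusted p = 0.00388), and the call held in all 21 alternative fits, with 0.26 at the lowest. Usp33 (ENSMUSG00000025437, chr3:152346478-152393617, plus strand) encodes an enzyme first found through the von Hippel-Lindau protein, which with its relative Usp20 also acts on the beta-2 adrenergic receptor in human cells. Usp33 had 15.5, 16.6 and 20.7 CPM in HF-named and 12.6, 13.2 and 15.1 CPM in con-named libraries. The groups did not overlap, and the log2 fold change was 0.36 (SE 0.08, edgeR adjusted p = 0.0087). Of its exon bases 24.4% overlap gene models on the opposite strand (Gm42967, Gm43857 and Gm43859), and since no strand-marking step is named, reads from these cannot be told apart. Usp20 differed by 0.09 (adjusted p = 0.23). Usp8, which acts in the endosomal sorting of growth factor receptors, differed by 0.12 (adjusted p = 0.119).

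In the group tied to TGF-beta signalling, Usp9x rose, Usp11 fell, and Usp15 and Usp4 did not pass. Usp9x (ENSMUSG00000031010, chrX:13071498-13173328, plus strand) encodes a very large enzyme whose substrates in human cells include SMAD4 and the survival protein MCL1. It had 70.5, 95.0 and 105 CPM in HF-named and 59.8, 70.02 and 80.3 CPM in con-named libraries. Of its HF-named values 5 exceeded every con-named value. Its log2 fold change of 0.40 (SE 0.09, adjusted p = 0.00878 in edgeR) was the highest of the family, and ranged from 0.35 to 0.47 over the 12 fits that drop 1 library. It was 0.29 with library totals and 0.30 with an offset for length and GC, where Usp32 was higher at 0.33. Usp11 (ENSMUSG00000031066, chrX:20703906-20720539, plus strand), whose product has been linked in human cells to the TGF-beta receptor and to BRCA2, went the other way. It had 6.16, 7.45 and 7.77 CPM in HF-named and 8.95, 9.55 and 11.4 CPM in con-named libraries. Each HF-named value was below each con-named value, as for 1.95% of all genes. The log2 fold change was -0.46 (SE 0.09, edgeR adjusted p = 0.00389), between -0.50 and -0.41 over the left-out libraries, and Usp11 was called lower in each of the 21 alternative fits. Both Usp9x and Usp11 lie on the X chromosome, as does Usp27x.

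Usp15 and Usp4 are the closest relatives of Usp11, and all act on components of TGF-beta signalling in human cells. Usp15 had 85.8, 99.1 and 109.8 CPM in HF-named and 49.1, 88.6 and 92.0 CPM in con-named libraries. Its log2 fold change of 0.28 (SE 0.12, adjusted p = 0.125 in edgeR) was the highest of the members that did not pass. The con-named library 2, at 49.1 CPM, stood apart from the other 5, at 79.0 to 92.0 CPM, and without it the log2 fold change was 0.16. Usp4 differed by 0.10 (adjusted p = 0.154).

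**Figure D2:**
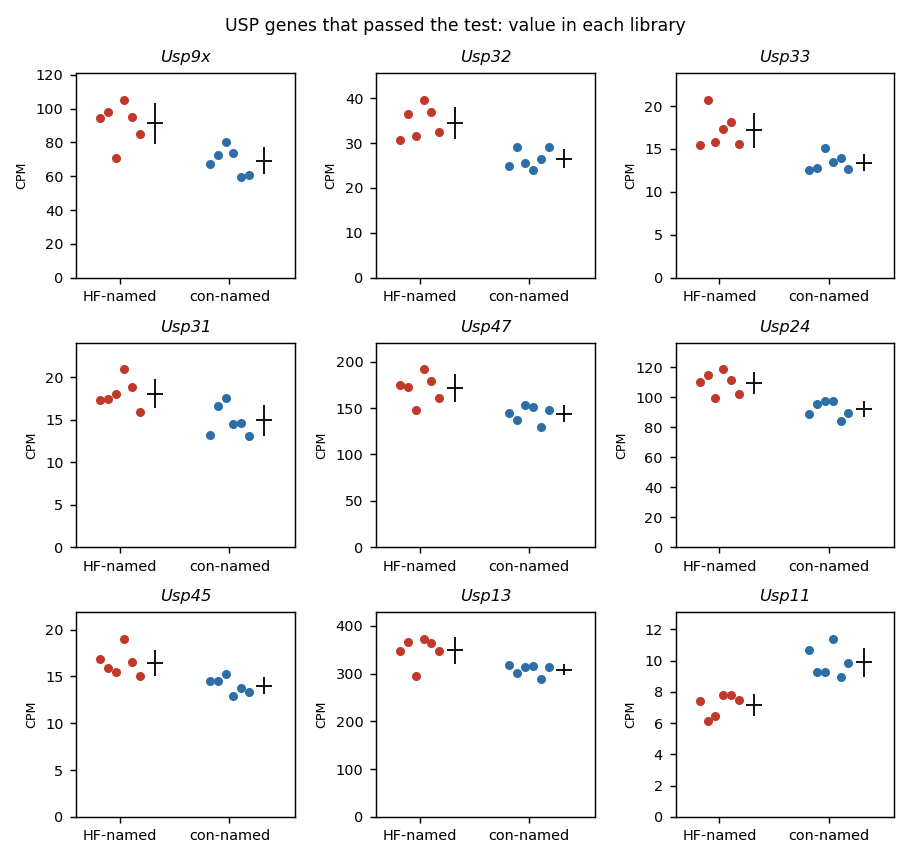
CPM (y axis, from 0) of the 9 USP genes that passed the test, one point per library, HF-named in red and con-named in blue, with the mean and SD (n = 6 each) in black beside the points. The groups do not overlap for Usp32, Usp33, Usp24 and Usp11, and Usp13 has 1 HF-named library at 295 CPM among the con-named values.

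Of the USPs of the proteasome and of free ubiquitin chains, Usp13 rose, and Usp5 and Usp14 did not pass. Usp13 (ENSMUSG00000056900, chr3:32817546-32938071, plus strand) encodes a relative of Usp5 that in human cells acts in autophagy and in degradation from the endoplasmic reticulum. It had 295, 356 and 372 CPM in HF-named and 289, 313 and 318 CPM in con-named libraries. The log2 fold change was 0.18 (SE 0.06, edgeR adjusted p = 0.0463). This call was kept in 1 of 12 fits that leave out a library, that without HF-named library 3 (adjusted p = 0.00441), and ended without any of the other 11 (up to 0.105, and 0.314 with scaling by library totals). Usp5, which takes apart unanchored ubiquitin chains, had 78.1 to 83.6 CPM in HF-named and 76.1 to 84.7 CPM in con-named libraries, a difference of 0.04 (SE 0.04, adjusted p = 0.611). Usp14, an enzyme bound to the proteasome, differed by 0.13 (SE 0.05, adjusted p = 0.0969), and 26.0% of its exon bases overlap Thoc1 on the opposite strand.

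A group of large or less studied enzymes held the other 4 calls. Usp24 (ENSMUSG00000028514, chr4:106316213-106441322, plus strand) encodes a relative of Usp9x that in human cells acts on p53 and the damage sensor DDB2. It had 99.3, 111 and 119 CPM in HF-named and 84.0, 92.5 and 97.4 CPM in con-named libraries, without overlap. The log2 fold change was 0.25 (SE 0.05, edgeR adjusted p = 0.00779), and it did not pass with scaling by library totals (adjusted p = 0.0781, against 0.000609 to 0.0268 in the other 20 alternative fits). Usp47 (ENSMUSG00000059263, chr7:112023504-112111661, plus strand), which acts on DNA polymerase beta in base excision repair, had 148, 174 and 192 CPM in HF-named and 129, 146 and 153 CPM in con-named libraries. Its log2 fold change was 0.25 (SE 0.06, edgeR adjusted p = 0.0136), and 5 of its HF-named values exceeded every con-named value. Like Usp24 it passed in all 12 fits that leave out a library, but it did not pass with library totals (adjusted p = 0.0577) or after adjustment for transcript length and GC (0.0662), against 0.00203 to 0.0474 in the other 19.

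Usp45 and Usp31 were called near the threshold. Usp45 (ENSMUSG00000040455, chr4:21767156-21837872, plus strand), which acts on the repair nuclease subunit ERCC1, had 15.1, 16.2 and 19.0 CPM in HF-named and 12.9, 14.1 and 15.2 CPM in con-named libraries (log2 fold change 0.23, SE 0.07, edgeR adjusted p = 0.0338, from 0.028 to 0.264 over 21 alternatives). The call ended, with adjusted p-values up to 0.0827, without any of HF-named libraries 1, 4 and 5 and con-named libraries 4, 5 and 6. Usp31 (ENSMUSG00000063317, chr7:121642021-121707253, minus strand) had 15.9, 17.7 and 20.9 CPM in HF-named and 13.1, 14.5 and 17.5 CPM in con-named libraries (log2 fold change 0.27, SE 0.08, edgeR adjusted p = 0.0401, from 0.0198 to 0.229 over 21 alternatives). Its call was kept without HF-named libraries 3 or 6 or con-named libraries 2 or 3, and ended without any of the other 8, at up to 0.0978.

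Just short of the threshold were Usp34 (log2 fold change 0.18, adjusted p = 0.0527), which acts on axin in Wnt signalling and overlaps Ahsa2 on the opposite strand with 11.6% of its exon bases, and Usp16 (0.16, adjusted p = 0.0546). Usp28, a partner of the DNA damage protein 53BP1 in human cells (0.18, adjusted p = 0.0568), and Usp54 (0.25, adjusted p = 0.0632) followed. With DESeq2 all 4 of these and Usp19 were called higher too, so that 13 members passed, beside 9.87% of all genes called higher by that tool, and Usp11 was called lower, beside 6.01%. In edgeR, 20 members had an unadjusted p under 0.05, which is 45.5% beside 28.6% of all genes, and 19 of these were higher in HF-named libraries.

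None of the 6 tested USPs that act on histones passed in edgeR, while Usp16 had an unadjusted p under 0.05 and was called by DESeq2. Usp16 and Usp3 remove ubiquitin from histone H2A, Usp22 is the enzyme of the SAGA complex and Usp27x its relative. Usp3 had 15.8 to 20.6 CPM in HF-named and 16.8 to 20.2 CPM in con-named libraries, Usp22 differed by 0.05 on the log2 scale, Usp21, another histone H2A enzyme, by -0.10 and Usp27x by -0.10. Usp49, which acts on histone H2B, had 4.43 to 6.83 CPM in HF-named and 5.01 to 7.77 CPM in con-named libraries, a difference of -0.25 (SE 0.13, adjusted p = 0.195), but 51.2% of its exon bases are shared with Gm20517 on the same strand. The USPs that need the partner UAF1, which are Usp1, Usp12 and Usp46, differed by 0.10, 0.18 and 0.05, and none passed in edgeR or DESeq2 (Usp12 alone at an unadjusted p under 0.05). Of 12 partner subunits of USPs tested, 1 passed as higher (8.33%, near the 8.28% of all genes) and none as lower (beside 5.05%). It was Herc2 (log2 fold change 0.29, SE 0.06, edgeR adjusted p = 0.00463), an E3 ligase listed as a partner of Usp16. Herc2 had 81.8 ± 5.72 CPM in HF-named and 66.9 ± 4.67 CPM in con-named libraries (SD, n = 6 each).

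The 4 USPs grouped by their action on p53 and related regulators did not pass in edgeR or DESeq2 either, and none of the 4 had an unadjusted p under 0.05. Usp7 had 77.9, 80.9 and 82.1 CPM in HF-named and 77.8, 81.2 and 82.7 CPM in con-named libraries and an SE of its log2 fold change of 0.04. Usp10, which binds the stress granule protein G3BP1, differed by 0.09 and Usp42 by -0.10. Usp2, whose transcript follows the circadian clock in mouse tissues, had 142, 172 and 183 CPM in HF-named and 159, 169 and 179 CPM in con-named libraries, a difference of -0.01 (SE 0.06, adjusted p = 0.925). Of 17 clock genes tested, 1 was higher, Nr1d2 (log2 fold change 0.26), and 2 were lower, Ciart (-0.47) and Cry2 (-0.18), in HF-named libraries. These are 5.88% and 11.8% of the list, beside 8.28% of all genes higher and 5.05% lower.

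Members of the remaining roles did not pass in edgeR. Usp19, anchored in the endoplasmic reticulum and known from muscle wasting in rodents, differed by 0.11 (adjusted p = 0.1), and Usp30 of the mitochondrial outer membrane by -0.08. Usp25, which has a muscle isoform, differed by 0.12 (adjusted p = 0.142). Usp18, which removes the ubiquitin-like protein ISG15 and is itself induced by interferon, had 5.77 to 12.6 CPM in HF-named and 6.93 to 9.68 CPM in con-named libraries, a difference of 0.02 (SE 0.15). Of 22 interferon-stimulated genes, 1 was higher (Rsad2, 0.32) and 1 lower (Ifnar2, -0.21). Each is 1 gene, or 4.55% of the list, beside 8.28% of all genes called higher and 5.05% called lower. An unadjusted edgeR p under 0.05 was found for 7 of the 22, beside 28.6% of all genes. The splicing factor Usp39, which lacks protease activity, differed by -0.06. For Usp35, Usp36, Usp37, Usp38, Usp40, Usp43, Usp48 and Usp53 the log2 fold changes lay between -0.14 for Usp43 and 0.14 for Usp37, with opposite-strand overlaps of 20.5% of exon bases in Usp38 (Gm9725) and 12.8% in Usp43 (9130017K11Rik).

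Per length, a small set of members made up much of the USP transcripts of the ventricle. Usp13 was first, with a median of 44.6 FPKM in HF-named and 42.0 FPKM in con-named libraries (a count per length of exon and per library total, as deposited). Usp2 followed with 34.2 FPKM in HF-named and 36.3 FPKM in con-named libraries, then Usp28 with 29.996 FPKM in HF-named and 28.4 FPKM in con-named libraries. Usp19 had 22.1 FPKM in HF-named and 22.0 FPKM in con-named libraries, and Usp5 had 16.95 FPKM in HF-named and 17.6 FPKM in con-named libraries. These 5 of 44 made up 44.1 to 45.9% of the summed FPKM of the family in HF-named and 44.9 to 46.2% in con-named libraries. The ranges of neighbours did not overlap in either group between Usp13 and Usp2, between Usp28 and Usp19, and between Usp19 and Usp5. Usp2 and Usp28 overlapped in HF-named libraries (29.2 to 36.3 FPKM and 27.5 to 31.5 FPKM). The lowest was Usp27x, at a median of 0.175 FPKM in HF-named and 0.204 FPKM in con-named libraries. FPKM was taken per deposited total, which includes the mitochondrial counts, so its differences between groups are not those of the TMM-scaled CPM. Of the called members, Usp47 ranked 7 per length, at 11.9 FPKM in HF-named and 10.8 FPKM in con-named libraries, and Usp33, Usp31 and Usp11 had group medians from 1.43 to 2.12 FPKM.

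**Figure D3:**
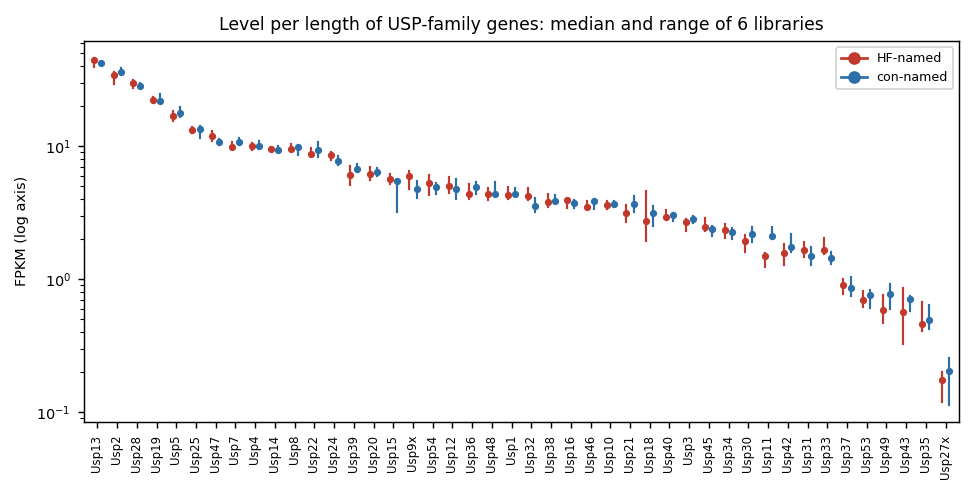
FPKM (y axis, log scale) of the 44 USP genes in order of their mean over all libraries, with the median as a point and the range of 6 libraries as a line, HF-named in red and con-named in blue. Levels run from 44.6 FPKM for Usp13 to 0.175 FPKM for Usp27x in HF-named libraries, and the ranges of the groups overlap for most genes.

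Ratios of related members within a library do not depend on the scaling between libraries. There were 14 pairs of close relatives, chosen with the values known, so the ratios are given without a test. The log2 ratio of Usp11 to Usp4 ran from -3.94 to -3.51 in HF-named and from -3.25 to -2.92 in con-named libraries, and that of Usp11 to Usp15 from -3.996 to -3.66 in HF-named and from -3.31 to -2.40 in con-named libraries. In both pairs the groups did not overlap, and the means of the ratio differed by -0.56 and -0.77 (SE 0.09 and 0.14). Both pairs hold Usp11, whose own CPM values did not overlap between the groups, so they are not results separate from that or from each other. The con-named value of -2.40 for Usp11 to Usp15 is that of con-named library 2, where Usp15 stood apart at 49.1 CPM, and it adds to the difference of that pair. The ratio of Usp47 to its relative Usp7 ran from 0.85 to 1.24 in HF-named and from 0.71 to 0.95 in con-named libraries, with 5 HF-named values above the con-named range. For Usp33 and Usp20 the ranges overlapped, at -2.04 to -1.46 in HF-named and -2.18 to -1.81 in con-named libraries. The ratio of Usp28 to Usp25 differed between the group means by 0.05 (SE 0.06) and that of Usp45 to Usp16 by 0.07 (SE 0.06).

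**Figure D4:**
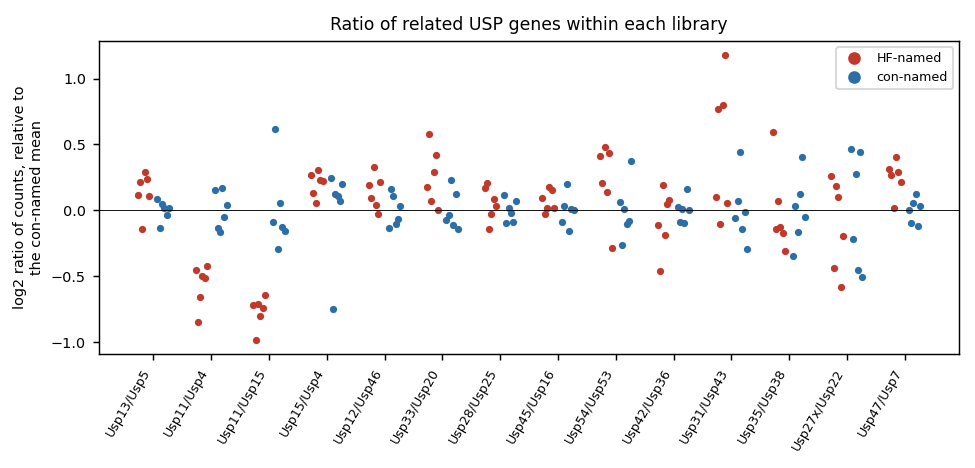
Log2 ratio of the counts of 14 pairs of related USP genes in each library (y axis, relative to the con-named mean of the pair), HF-named points in red left of the con-named points in blue. The HF-named points of both Usp11 pairs lie below all con-named points, and 1 con-named library sits low for Usp15/Usp4 and high for Usp11/Usp15.

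The fold changes of the family ran with the length and base composition of its transcripts. Across the 44 genes the log2 fold change had a Pearson correlation of 0.49 with log2 exon length and of -0.48 with GC content (Spearman 0.52 and -0.57). Over 14904 genes with an annotated length, these were 0.15 and -0.12 (Spearman 0.24 and -0.17). The genes share libraries, so these values are descriptions. The 8 members called higher had a median exon length of 9990 bases and a median GC content of 43.9%, against 6543 bases and 49.6% for the other 36 members and 4168 bases and 49.5% for all genes. After an offset for length and GC entered the fit, 5 members were called higher, beside 7.11% of all genes. These were Usp9x, Usp32, Usp33, Usp24 and Usp19, while Usp47, Usp45, Usp31 and Usp13 no longer passed. Their log2 fold changes with the offset were 0.17, 0.19, 0.22 and 0.15, against 0.25, 0.23, 0.27 and 0.18 without it. The median of the family was then 0.07 against 0.01 for all genes, and Usp11 was again the one member called lower, beside 3.27% of all genes, at -0.46.

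**Figure D5:**
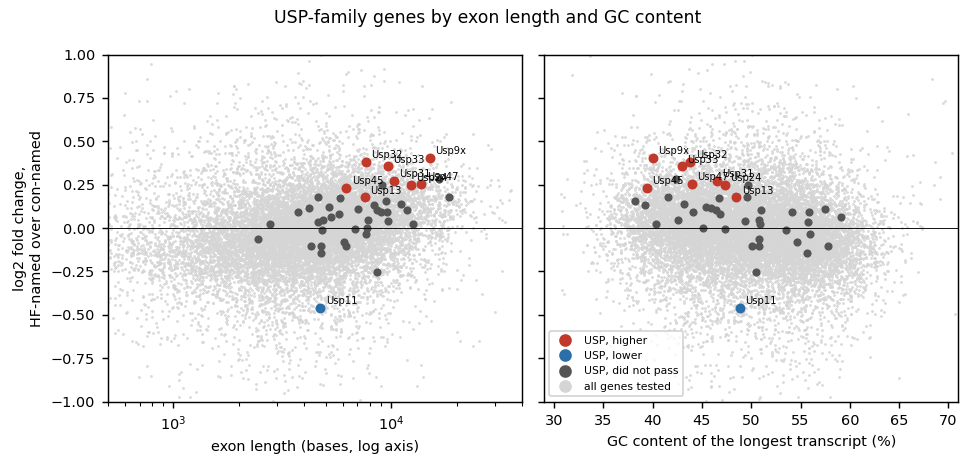
Log2 fold change (y axis, HF-named over con-named) against exon length in bases (left, log scale) and GC content of the longest transcript in percent (right), with all genes tested in light grey and USP genes in dark grey, red (called higher) and blue (called lower); genes outside the axis ranges are not shown. The red points lie at long and GC-poor transcripts, from 6226 to 15051 bases and 39.4 to 48.5% GC.

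Of 3 genes of the USP fold outside the naming rule 1 passed as higher (beside 8.28% of all genes) and none as lower (beside 5.05%). This was the deubiquitinase gene Cyld, which rose, with 44.6 ± 3.19 CPM in HF-named and 38.6 ± 1.97 CPM in con-named libraries (SD, n = 6 each), a log2 difference of 0.21 (SE 0.05, adjusted p = 0.0192 in edgeR). Uspl1 differed by 0.06 (adjusted p = 0.555) and Pan2 by -0.0072 (adjusted p = 0.944). Of 35 genes of other deubiquitinase families tested, 4 were higher (11.4%, beside 8.28% of all genes) and none lower (beside 5.05%), with 20 above 0 and a median log2 fold change of 0.01. These were Otud6b (0.31, SE 0.05), Mindy2 (0.27, SE 0.05), Josd1 (0.26, SE 0.06) and Otud7b (0.23, SE 0.06). For the first 3 of these every HF-named value exceeded every con-named value, as for 3.41% of all genes. Upstream in the pathway, 4 of 35 E1 and E2 genes were higher (11.4%) and none lower, shares to be read beside the same 8.28% and 5.05%. They were the E2 genes Ube2g1 (0.24), Ube2l3 (0.15), Birc6 (0.16) and Ube2h (0.20). Neither of the ubiquitin-like genes Isg15 and Nedd8 passed in edgeR or DESeq2 (Nedd8 at an unadjusted p under 0.05).

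In the authors' deposited table, log2 fold changes had the same direction as here for each of the 9 called members. At an adjusted p under 0.05 the authors' deposited table had 6 members higher, beside 3.39% of its 33183 genes, and 1 lower, beside 1.72%. Those 33183 genes include many that did not pass the count filter used here, which left 15114. The 2 shares are therefore not comparable with the shares of genes tested given above. Usp31 (adjusted p = 0.0587) and Usp45 (0.0643) did not pass in the authors' deposited table, and Usp13 did (0.035).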

How the data were processed

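Poly-A RNA of mouse ventricles was sequenced in 12 libraries, grouped by the HF or con name in the description label, since titles contradict it. The authors deposited raw read counts per gene. The submitters' processing notes name cutadapt (1.15), HISAT2 (2.0.5), HTSeq (0.9.1) and the build mm10, and the strand setting is not given in the sources used here. The deposited FPKM values equal counts divided by exon length and library total. They match GENCODE M21 exon lengths within 1% for 95.48% of 11593 genes checked and for 43 of the 44 members, the exception being Usp14. The authors' deposited table holds a mean signal per group (counts over size factors), log2 fold changes and p-values, and its HF column equals the mean of the HF-named libraries for 100% of genes.

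Here, counts passed filterByExpr, were normalized by TMM and entered edgeR's quasi-likelihood test (two-sided, group as the single term; versions edgeR 4.0.16, limma 3.58.1 and R 4.3.3). P-values were adjusted by Benjamini-Hochberg over 15114 genes, at 0.05. Alternatives were RLE factors, library totals, no filter, at least 1 CPM in 6 libraries, a replicate block, DESeq2 1.42.0, limma-voom, splines of exon length and GC content as an offset (5 degrees of freedom, prior count 2), no mitochondrial transcripts, and each library left out. Ratios of pairs used counts plus 0.5. The steps were tested on simulated data. Within groups, the libraries of all 30 pairs differed by more than sampling noise (chi-square per degree of freedom 4.35 to 18.1).

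Members and lists were chosen with earlier results of these data known. Named with values were the called members, the 5 most abundant per length, the 3 members not called with the largest change, members gained or lost under an alternative and, from each other list, its called genes, of which 1 is not reported here. Further members complete the account of the family.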

Additional observations from a re-analysis of the deposited data

Results flagged for a closer look

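Among 120 groups of 6 values examined, 5 held a library far from the other 5, where chance gives about 5%. Usp13 stood at 295 CPM in HF-named library 3, against 347 to 372 CPM in the other HF-named libraries. Usp35 stood at 3.59 CPM in HF-named library 1, against 2.25 to 2.73 CPM in the others. Usp15 stood at 49.1 CPM in con-named library 2, against 79.0 to 92.0 CPM in the others, and the same library had a log2 ratio of Usp15 to Usp4 of -0.82, against 0.00 to 0.17. Usp48 stood at 48.2 CPM in con-named library 5, against 40.1 to 43.0 CPM in the others.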

How the results depend on the processing

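Usp11 was called lower in all 21 alternatives, and Usp32, Usp33 and Usp9x higher. The number of members called higher was 8 with RLE factors, with a filter of 1 CPM (which leaves out Usp27x), with limma-voom and without mitochondrial transcripts. It was 3 with library totals, 5 with no filter beyond 1 count, 5 with the length and GC offset and 13 with DESeq2. With each library left out it was from 5 to 11, namely 5 without HF-named libraries 1, 4 or 5 or con-named libraries 5 or 6, and 11 without HF-named library 3. Calls over all genes were 2016, against 3065 with library totals, 1562 with no filter, 1546 with the length and GC offset and 2307 with DESeq2. With RLE factors they were 1988, with a filter of 1 CPM 2079, with limma-voom 2062 and without mitochondrial transcripts 2017. They were 2550 without HF-named library 3, and 1355 to 1701 in the left-out fits with 5 members higher. The member counts over left-out libraries are to be read beside these totals, which hold calls in both directions. Genes called higher alone were 8.28% in the main fit and 3.2% with library totals. They were 7.11% with the length and GC offset, 9.87% with DESeq2 and 8.4% with limma-voom. Same-numbered libraries did not deviate together (correlations from -0.16 to 0.09, with 1 of 6 HF-named libraries closest to its own number), so the numbers give no pairing; with the replicate block 5 members were called higher and 1131 genes in all.

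The family median turned to -0.021 with library totals and ranged from 0.072 to 0.106 over left-out libraries. Its distance from the median of all genes was 0.064 to 0.118 over the alternatives. Signs of uncalled members turned with library totals for Usp19 (-0.0067), Usp4 (-0.013), Usp40 (-0.0084), Usp10 (-0.023), Usp20 (-0.020), Usp1 (-0.022), Usp38 (-0.035), Usp5 (-0.079), Usp48 (-0.073), Usp22 (-0.070), Usp46 (-0.073), Usp35 (-0.054), Usp53 (-0.099) and Usp18 (-0.087). With the length and GC offset they turned for Usp48 (-0.0063), Usp46 (-0.0053), Usp53 (-0.064) and Usp2 (0.014), with limma-voom for Usp18 (-0.010) and Usp3 (0.0018), and with DESeq2 for Usp7 (0.00025) and Usp3 (0.00036). Over left-out libraries the sign turned within the ranges of Usp46 (-0.0034 to 0.068), Usp35 (-0.034 to 0.115), Usp53 (-0.038 to 0.069), Usp2 (-0.041 to 0.034), Usp18 (-0.123 to 0.112), Usp7 (-0.019 to 0.0076) and Usp3 (-0.043 to 0.041). The cause of these turns was not tested.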
